A study of Drosophila melanogaster with 73 samples.

Results

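Transcripts of 10 genes of gluconeogenesis, trehalose and glycogen metabolism were examined in guts and abdominal fat bodies of adult female Drosophila melanogaster. The set was fbp, Pepck1 and Pepck2 and G6P (gluconeogenesis), Tps1, Tret1-1 and Treh (trehalose synthesis, transport and breakdown), and GlyS, AGBE and GlyP (glycogen synthesis, branching and breakdown), whose present symbols for GlyS and GlyP are Glys and Glyp. They were chosen by name and matched through their FlyBase identifiers, and 9 of the 10 had a row in both count tables, of 10366 gut and 11069 fat body genes. G6P (FBgn0031463) had no row in either table and was not analysed here. All 9 passed the filter on low counts in both tissues.

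Every fly carried the S106 GeneSwitch driver, which acts in gut and fat body when the steroid RU486 is eaten, together with transgenes for Foxo, AopACT or PntP1. Foxo is the forkhead transcription factor that insulin signalling holds inactive. AopACT is a version of Aop, a repressor of the ETS family, that is always active, and PntP1 is an active isoform of Pnt, an activator of the same family. The 7 genotypes were Foxo, AopACT, PntP1, Foxo+AopACT, Foxo+PntP1, AopACT+PntP1 and Foxo+AopACT+PntP1. Females that had mated for 48 h were kept on food with 10% yeast and 5% sucrose and received 200 µM RU486 (induced) or the solvent without it (uninduced) for 6 days. No library of flies with the driver and no transgene was analysed here, so an effect of RU486 itself and one of a transgene cannot be told apart within 1 genotype.

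Polyadenylated RNA was sequenced from pools of dissected organs. The gut had 36 libraries (17 induced, 19 uninduced) and the fat body 34 (18 induced, 16 uninduced), in groups of 1 to 3 libraries. The lone library was that of uninduced Foxo+PntP1 guts. Fat body samples were abdomens from which gut and reproductive organs had been removed, so they also held cuticle-associated muscle and oenocytes. Gut libraries held 1598120 to 6145550 counts each (median 2576756.5) and fat body libraries 1138812 to 8257766 (median 2796489.5).

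The driven mRNAs were examined as a check of the labels. Levels are given as CPM, counts per 1000000 counts of a library after scaling. In guts, pnt lay between 155 and 1050.1 CPM in the 10 induced libraries carrying PntP1, against 24.0 to 79.0 CPM in the other 26. The foxo and aop ranges overlapped with those of the other libraries in both tissues. Induced guts with all the transgenes had 72.6, 56.3 and 101.7 CPM of foxo, against 55.2, 73.5 and 92.1 CPM in uninduced ones, and Foxo+PntP1 guts had 57.8, 75.8 and 109.7 CPM when induced and 56.7 CPM in the single uninduced library. Induced and uninduced guts thus overlapped with all the transgenes, and in Foxo+PntP1 the lowest induced library stood just above the uninduced one. Both genotypes are counted as carrying Foxo by their labels. In fat bodies, foxo lay between 44.5 and 149 CPM in the 11 induced carriers and between 39.2 and 132 CPM in the other 23, so the level of foxo mRNA did not show which fat bodies had been induced. In fat bodies pnt lay between 53.4 and 213 CPM in the 10 induced carriers, against 7.84 to 114.8 CPM in the others. The highest of the others was the library labelled Foxo+PntP1 uninduced replicate 1, which goes against its label. Over 20% of the counts were mitochondrial in 2 gut libraries, replicate 2 of induced Foxo+PntP1 and replicate 3 of uninduced Foxo+AopACT+PntP1 (24.9% each). The tissue labels were checked with marker genes. All 8 tested fat body markers were lower in uninduced guts than in uninduced fat bodies (median log2 difference -5.96), and all 13 tested enterocyte markers were higher (median 7.78).

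Gluconeogenesis rebuilds glucose from smaller molecules. Phosphoenolpyruvate carboxykinase, encoded by Pepck1 and its neighbouring paralog Pepck2, turns oxaloacetate into phosphoenolpyruvate, and fbp encodes fructose bisphosphatase, which works further along the route. In insects the fat body turns glucose phosphate into trehalose, the main blood sugar, through Tps1, the trehalose-phosphate synthase. Tret1-1 encodes a trehalose transporter and Treh the trehalase that splits the sugar into glucose. Glycogen is built by glycogen synthase (Glys) and the branching enzyme (AGBE) and is broken down by glycogen phosphorylase (Glyp).

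By the Ensembl annotation of BDGP6, fbp (FBgn0032820) lies on chromosome 2L from 19761587 to 19764136, Tps1 on 2L from 4388327 to 4392778 and Glyp on 2L from 2130813 to 2137296. Pepck2 lies on chromosome 2R from 18527430 to 18535749 and Pepck1 directly after it, from 18536767 to 18539416. Treh lies on 2R from 21074018 to 21088945, Tret1-1 on 2R from 11665768 to 11674782, AGBE on 2R from 13171401 to 13174796, and Glys on 3R from 15141843 to 15147531. All 2486 exon bases of Pepck1 are also annotated, on the same strand, to CG45087. The counts of the pair were equal in 36 of 36 gut and 34 of 34 fat body libraries, so the values given for Pepck1 are those of the shared stretch. Treh shares 560 exon bases with Rbpn-5 on the opposite strand. Rbpn-5 had 12 to 90 counts in gut libraries where Treh had 467 to 2526, and 14 to 143 in fat body libraries where Treh had 302 to 3024. Reads from Pepck1 and Pepck2, and from Tret1-1 and its paralog Tret1-2, may also have been split by the counting.

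Levels in the absence of induction were compared first, between 19 gut and 16 fat body libraries scaled together. Among them, 13 library numbers were held by both tissues. The labels do not say that a shared number marks the same flies, and the fit treated all libraries as separate. Tps1, Pepck1, Tret1-1, fbp, AGBE, Glyp and Glys were lower in the gut, and Treh was higher. Of the 9 genes, 7 were lower in the gut, 1 was higher and 1 did not pass (edgeR, called at an adjusted p under 0.1). Among all 8399 genes tested, 74.9% were called in this comparison, so the number of calls is not particular to these genes. Values are CPM as mean ± SD, n = 19 guts and 16 fat bodies.

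**Figure D1:**
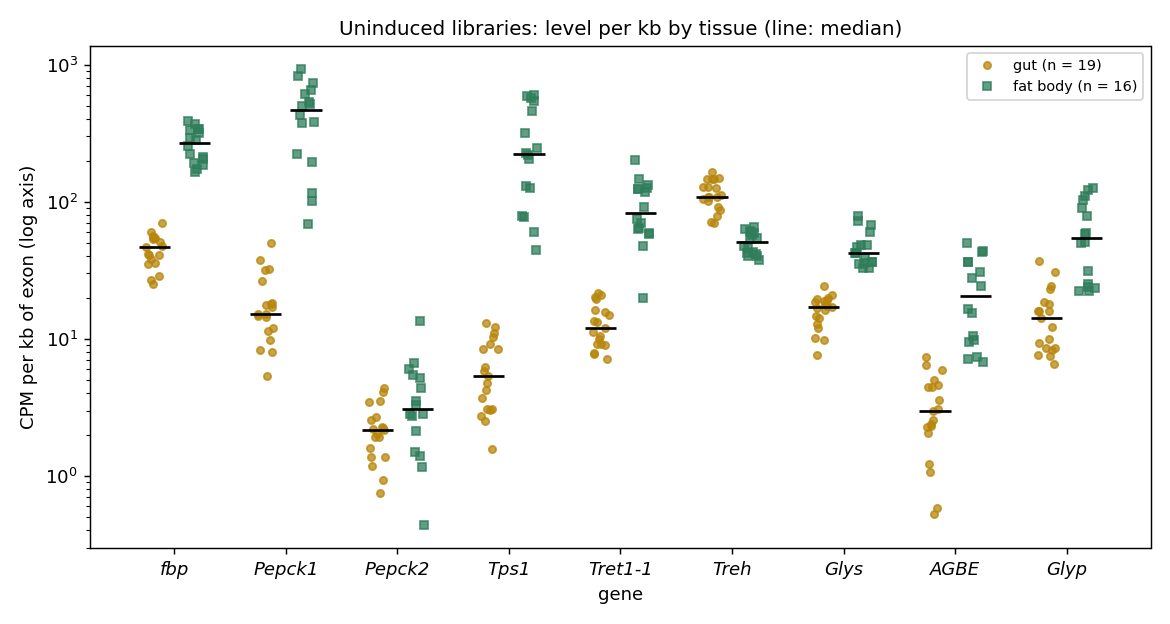
Levels of the 9 genes in uninduced guts and uninduced fat bodies, as CPM per kilobase of exon on a log axis. Each point is a library (19 guts, 16 fat bodies) and each line a median. Treh is the one gene whose gut libraries all lie above its fat body libraries, and fbp, Pepck1, Tps1 and Glys are those whose gut libraries all lie below. How many of all genes separate in this way was not counted.

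Tps1 had the widest gap of the 9, with 18.3 ± 10.5 CPM in guts and 823 ± 601 CPM in fat bodies. Its log2 difference was -5.26 ± 0.38 SE (edgeR adjusted p = 2.04e-13), a level 38.4-fold higher in fat bodies. Pepck1 followed with 47.6 ± 28.7 CPM in guts and 1120.3 ± 657 CPM in fat bodies (log2 difference -4.29 ± 0.28 SE, edgeR adjusted p = 1.58e-14). No gut library reached the lowest fat body library for either gene.

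The transporter Tret1-1 averaged 44.3 ± 15.9 CPM in guts and 321 ± 156 CPM in fat bodies (log2 difference -2.73 ± 0.22). Levels of fbp were 54.5 ± 14.5 CPM in guts and 322 ± 90.8 CPM in fat bodies (log2 difference -2.63 ± 0.13). Among glycogen enzymes, AGBE had 7.68 ± 4.56 CPM in guts and 54.5 ± 34.8 CPM in fat bodies (log2 difference -2.53 ± 0.31). Glyp had 48.4 ± 26.6 CPM in guts and 196 ± 119 CPM in fat bodies (-1.79 ± 0.26), and Glys had 54.3 ± 14.3 CPM in guts and 158 ± 49.4 CPM in fat bodies (-1.54 ± 0.15). The edgeR adjusted p of these 5 was at most 3.79e-07. Treh ran the other way, with 501 ± 122 CPM in guts and 222 ± 41.4 CPM in fat bodies (log2 difference 1.17 ± 0.11, edgeR adjusted p = 6.53e-11), and the tissues did not overlap. Pepck2 was low in both tissues, at 7.90 ± 3.57 CPM in guts and 13.8 ± 11.0 CPM in fat bodies, and did not pass (log2 difference -0.46 ± 0.29, edgeR adjusted p = 0.164). It was called lower in the gut without any one of 9 of the 35 libraries, at edgeR adjusted p between 0.0178 and 0.0979. These were gut AopACT replicate 2, AopACT+PntP1 replicates 1 and 3 and Foxo+AopACT+PntP1 replicate 1, and fat body AopACT replicates 1 and 2, AopACT+PntP1 replicates 1 and 2 and Foxo+AopACT replicate 2. Without fat body AopACT+PntP1 replicate 2 the difference was -0.73, the widest of these. In bulk samples, fewer cells of a type and less RNA per cell cannot be told apart.

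Order within a tissue was read on CPM per kilobase of exon. In uninduced guts Treh stood first with a median of 109, followed by fbp with 46.4, and neither range overlapped with that of the gene below it. Glys (17.2), Pepck1 (15.1), Glyp (14.2) and Tret1-1 (12.0) followed with overlapping ranges, and each stood above the next in only 11 or 12 of the 19 libraries up to Tret1-1. Tret1-1 was above Tps1 (5.40) in 19 of 19. AGBE (2.99) and Pepck2 (2.15) were lowest and overlapped. In uninduced fat bodies Pepck1 stood first with a median of 464, followed by fbp (268), Tps1 (223), Tret1-1 (83.2), Glyp (54.8), Treh (50.5), Glys (42.6), AGBE (20.5) and Pepck2 (3.07). Every pair of neighbours in that order overlapped in range. Tps1 was nevertheless above Tret1-1 in 16 of 16 libraries, whereas fbp was above Tps1 in only 9 of 16.

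Induction was then compared within each genotype in the gut, asking which of these genes followed each transcription factor. Pepck2 was higher in the genotypes with Foxo and AopACT together, and fbp was lower with PntP1. Of 63 responses (9 genes in 7 genotypes), 3 were called, 2 higher and 1 lower, and 12 had an unadjusted p under 0.05. Of all genes, between 0.291% (AopACT) and 3.04% (PntP1) were called in a genotype. An unadjusted p under 0.05 was reached by 372 (AopACT) to 1405 (Foxo+AopACT) of all 9270 genes tested. Both calls higher were of Pepck2 and the call lower was of fbp. No response of Pepck1, Tps1, Tret1-1, Treh, Glys, AGBE or Glyp was called in the gut. In both tissues, a lack of overlap between groups of 1 to 3 libraries is description only, since it was not counted over all genes.

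**Figure D2:**
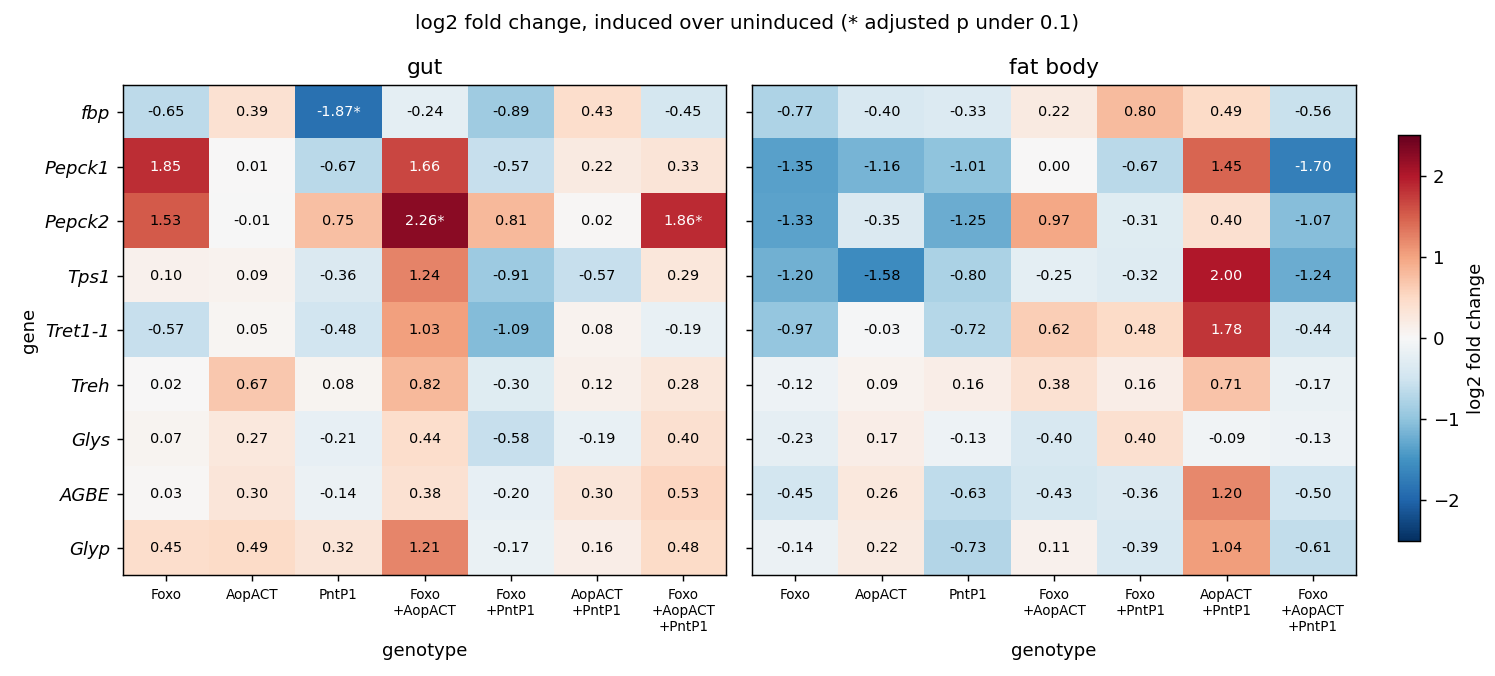
Response of each of the 9 genes to induction in each of the 7 genotypes, in guts and in fat bodies, as log2 fold change (induced over uninduced). Colour gives direction and size, each cell prints its value, and an asterisk shows a call at an edgeR adjusted p under 0.1. The 3 responses with an asterisk are all in the gut, those of Pepck2 in Foxo+AopACT and Foxo+AopACT+PntP1 and that of fbp in PntP1.

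The fall of fbp in PntP1 guts was the response with the lowest p of the 63. Induced PntP1 guts had 18.2 and 15.3 CPM of fbp, against 76.4, 58.1 and 45.6 CPM in uninduced ones, with no overlap. The log2 fold change was -1.87 ± 0.34 SE (edgeR adjusted p = 0.00166), where 3.04% of all genes were called. The call held without any single library, the highest edgeR adjusted p being 0.0714. In Foxo+PntP1 guts fbp had 10.6, 16.8 and 17.4 CPM when induced and 27.6 CPM in the single uninduced library, and did not pass (log2 fold change -0.89 ± 0.40, edgeR adjusted p = 0.471), where 2.79% of all genes were called. Where AopACT accompanied PntP1, induced and uninduced guts overlapped. AopACT+PntP1 guts had 56.0 and 82.3 CPM when induced and 62.3, 51.6 and 45.6 CPM when uninduced (log2 fold change 0.43 ± 0.31, edgeR adjusted p = 0.930). Guts with all the transgenes had 31.4, 32.5 and 32.9 CPM when induced and 38.2, 63.2 and 30.1 CPM when uninduced (-0.45 ± 0.29, edgeR adjusted p = 0.604).

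The other genotypes gave no call of fbp. Foxo guts had 32.7, 36.6 and 46.8 CPM when induced and 62.0, 59.7 and 61.4 CPM when uninduced, without overlap, and did not pass (log2 fold change -0.65 ± 0.28, edgeR adjusted p = 0.826). AopACT guts had 45.7 and 71.4 CPM when induced and 66.9, 32.2 and 41.5 CPM when uninduced. Foxo+AopACT guts had 46.7 and 35.8 CPM when induced and 53.9, 40.7 and 47.8 CPM when uninduced. In both of these the groups overlapped.

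The response of fbp differed between genotypes. The genotype by induction interaction was called for fbp alone of the 9 genes (edgeR adjusted p = 0.0407), where 2.45% of all genes were called. An unadjusted p under 0.05 was reached by 3 of the 9 and by 750 of all 9270 genes. The call was lost without PntP1 uninduced replicate 1 (edgeR adjusted p = 0.160), PntP1 induced replicate 1 (0.141) or PntP1 induced replicate 2 (0.260). The mean response of the 4 genotypes with AopACT was 0.03 on the log2 scale, against -1.14 in the 3 without it. Those without it were Foxo, PntP1 and Foxo+PntP1, so PntP1 and Foxo were each carried by a larger share of them. This AopACT difference was 1.17 ± 0.25 SE (edgeR adjusted p = 0.0121), where 2.02% of all genes were called. It held when each of 35 libraries was left out in turn (edgeR adjusted p at most 0.0489). The lone uninduced Foxo+PntP1 library, behind 1 of the 3 responses without AopACT, could not be left out. Over all 7 genotypes, fbp averaged a log2 response of -0.47 ± 0.12 (edgeR adjusted p = 0.0133), where 11.1% of all genes were called. Enterocyte markers moved in PntP1 guts as well. Of 13 markers, 5 were called lower there (median log2 fold change -1.19) and their summed level was 47107 to 53602 CPM in induced and 59289 to 115246 CPM in uninduced libraries. Their part in the fall of fbp was not tested.

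**Figure D3:**
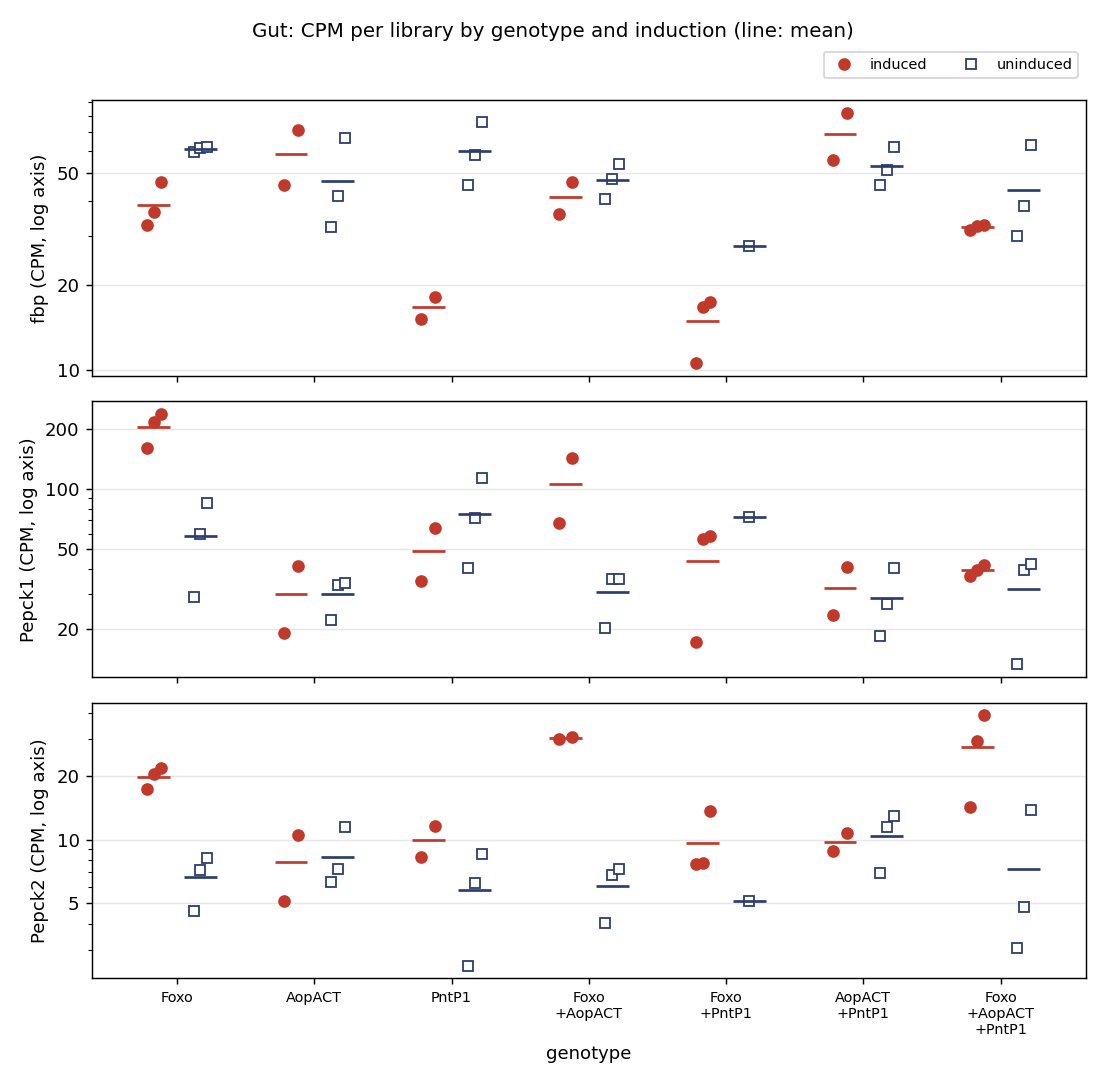
Levels of fbp, Pepck1 and Pepck2 in every gut library by genotype, in CPM on a log axis, induced libraries left of uninduced ones. Points are libraries and lines are group means. Induced PntP1 guts lie at 18.2 and 15.3 CPM of fbp, below all uninduced PntP1 guts, and induced Foxo and Foxo+AopACT guts lie above their uninduced counterparts for Pepck1 and Pepck2.

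Pepck2 was the gene with the highest rise. Induced Foxo+AopACT guts had 30.8 and 30.1 CPM, against 6.80, 7.28 and 4.05 CPM in uninduced ones (log2 fold change 2.26 ± 0.48 SE, edgeR adjusted p = 0.0148), where 2.13% of all genes were called. Guts with all the transgenes had 38.9, 14.3 and 29.3 CPM when induced and 13.9, 4.82 and 3.07 CPM when uninduced (1.86 ± 0.44, edgeR adjusted p = 0.0277), where 1.64% of all genes were called. The groups did not overlap in either genotype, although with all the transgenes the nearest libraries stood at 14.3 CPM (induced) and 13.9 CPM (uninduced). The call in Foxo+AopACT was lost without Foxo+AopACT induced replicate 1 (edgeR adjusted p = 0.102), induced replicate 2 (0.146) or uninduced replicate 3 (0.134). The call with all the transgenes was lost without induced replicate 1 (edgeR adjusted p = 0.234), induced replicate 3 (0.119), uninduced replicate 2 (0.135) or uninduced replicate 3 (0.262) of that genotype. It was also lost without both libraries of over 20% mitochondrial counts (log2 fold change 1.56, edgeR adjusted p = 0.236). Marker levels differed in these guts too. Summed enterocyte markers were 34223 and 41729 CPM in induced and 48252 to 81552 CPM in uninduced Foxo+AopACT guts, without overlap, with 2 of 13 called lower (median log2 fold change -0.71). With all the transgenes they were 37738 to 52291 CPM when induced and 25480 to 100908 CPM when uninduced, with 2 of 13 called lower (median -0.38). Fat body markers with all the transgenes summed to 784 to 2718 CPM when induced and 408 to 1328 CPM when uninduced, and none of 8 was called. The part of either in the rise of Pepck2 was not tested.

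Foxo guts likewise had more Pepck2 when induced, with 17.5, 20.4 and 21.9 CPM against 4.61, 7.18 and 8.17 CPM when uninduced, but did not pass (log2 fold change 1.53 ± 0.43, edgeR adjusted p = 0.181), where 0.507% of all genes were called. Foxo+PntP1 guts had 13.7, 7.76 and 7.67 CPM when induced and 5.13 CPM in the single uninduced library. The 3 genotypes without Foxo overlapped between induced and uninduced guts. AopACT guts had 10.5 and 5.15 CPM when induced and 6.27, 11.4 and 7.25 CPM when uninduced, where 0.291% of all genes were called. AopACT+PntP1 guts had 10.7 and 8.89 CPM when induced and 11.4, 6.97 and 13.0 CPM when uninduced, where 0.787% of all genes were called. PntP1 guts had 8.26 and 11.6 CPM when induced and 8.60, 2.53 and 6.26 CPM when uninduced.

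Over the 7 genotypes Pepck2 averaged a log2 response of 1.03 ± 0.19 in the gut (edgeR adjusted p = 6.00e-04). This held when each of 35 libraries was left out in turn (edgeR adjusted p at most 0.00267), but the lone uninduced Foxo+PntP1 library could not be left out. The 4 genotypes with Foxo averaged 1.62 and the 3 without it 0.25. This Foxo difference of 1.36 ± 0.39 did not pass (edgeR adjusted p = 0.829), where 0.0431% of all genes were called.

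Pepck1 behaved less evenly. Induced Foxo guts had 162, 238 and 218 CPM, against 28.7, 59.9 and 85.3 CPM in uninduced ones, without overlap. The log2 fold change of 1.85 ± 0.47 SE did not pass (edgeR adjusted p = 0.101), and DESeq2 called it (adjusted p = 0.0217). Foxo+AopACT guts had 67.4 and 144 CPM when induced and 35.6, 35.5 and 20.3 CPM when uninduced (1.66 ± 0.53, edgeR adjusted p = 0.122). In the genotypes with PntP1 the induced guts overlapped with the uninduced ones or lay below them. PntP1 guts had 34.7 and 63.7 CPM when induced and 71.8, 40.4 and 114 CPM when uninduced. Foxo+PntP1 guts had 58.2, 17.2 and 56.0 CPM when induced and 72.9 CPM when uninduced. Guts with all the transgenes had 41.5, 36.8 and 39.5 CPM when induced and 39.6, 13.2 and 42.4 CPM when uninduced. AopACT+PntP1 guts had 40.9 and 23.3 CPM when induced and 26.7, 18.5 and 40.2 CPM when uninduced. AopACT guts overlapped too, with 41.1 and 19.0 CPM when induced and 33.9, 33.2 and 22.2 CPM when uninduced.

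The mean log2 response of Pepck1 was -0.17 in the 4 genotypes with PntP1 and 1.17 in the 3 without it. Those without it were Foxo, AopACT and Foxo+AopACT, so Foxo and AopACT were each carried by a larger share of them. This PntP1 difference of -1.35 ± 0.40 SE was called (edgeR adjusted p = 0.0693), where 4.25% of all genes were called. It was lost when any one of 11 of 35 libraries was left out. These were Foxo uninduced replicate 1 and induced replicate 2, AopACT induced replicate 1 and uninduced replicate 3, PntP1 induced replicate 1, Foxo+AopACT induced replicate 2 and uninduced replicate 3, AopACT+PntP1 induced replicate 2 and uninduced replicate 1, and Foxo+AopACT+PntP1 induced replicate 3 and uninduced replicate 1. The highest edgeR adjusted p was 0.369, without AopACT induced replicate 1. Pepck1 is far more abundant in fat bodies, and fat body markers were also present in gut libraries. Their summed level was 433, 2329.5 and 2201 CPM in induced and 367, 936 and 1607 CPM in uninduced Foxo guts, and 766 and 1285 CPM in induced and 678, 1063 and 399 CPM in uninduced Foxo+AopACT guts. None of the 8 tested markers was called in Foxo guts (median log2 fold change 0.64, 7 of 8 above 0) or in Foxo+AopACT guts (0.55, 6 of 8 above 0). Their part in the levels of Pepck1 was not tested.

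No trehalose gene gave a call in the gut. Treh had 915 and 768 CPM in induced Foxo+AopACT guts, against 532, 467 and 389 CPM in uninduced ones, without overlap (log2 fold change 0.82 ± 0.26, edgeR adjusted p = 0.126). AopACT guts had 538 and 793 CPM of Treh when induced and 517, 436 and 400.5 CPM when uninduced (0.67 ± 0.26, edgeR adjusted p = 0.873). In the other 5 genotypes Treh responses lay between -0.30 and 0.28 on the log2 scale. Tret1-1 had 64.5 and 54.9 CPM in induced Foxo+AopACT guts, against 33.5, 32.1 and 23.5 CPM in uninduced ones (1.03 ± 0.46, edgeR adjusted p = 0.293). Foxo+PntP1 guts had 30.9, 10.8 and 25.3 CPM of this transporter when induced and 48.2 CPM in the single uninduced library (-1.09 ± 0.57, edgeR adjusted p = 0.586). Tps1 responses lay between -0.91 and 1.24, the highest being that of Foxo+AopACT guts, which had 13.4 and 21.3 CPM when induced and 8.37, 8.56 and 4.46 CPM when uninduced, without overlap (1.24 ± 0.83, edgeR adjusted p = 0.451). The spread of Tps1 within groups was wide, as in Foxo guts with 8.73, 29.1 and 37.7 CPM when induced and 11.8, 29.0 and 27.5 CPM when uninduced.

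Glycogen genes gave no call in the gut. Glyp had 71.7 and 88.0 CPM in induced Foxo+AopACT guts, against 27.7, 47.5 and 26.3 CPM in uninduced ones, without overlap (log2 fold change 1.21 ± 0.56, edgeR adjusted p = 0.307). Its other responses lay between -0.17 and 0.49. Responses of Glys lay between -0.58 and 0.44, and those of AGBE between -0.20 and 0.53.

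Seen together, 8 of the 9 genes were above 0 in Foxo+AopACT guts with a median log2 fold change of 1.03, where the median of all genes was -0.10. In Foxo+PntP1 guts 1 of 9 was above 0 (median -0.57, all genes 0.05), which rests on 1 uninduced library. Of the 3 induced libraries there, replicate 2 had 24.9% mitochondrial counts and 9715 CPM of enterocyte markers, against 81820 CPM in the uninduced library, and the part of these in the count was not tested. The AopACT difference was above 0 in 9 of 9 (median 0.48, all genes -0.04), with only fbp called. The PntP1 difference was below 0 in 9 of 9 (median -0.52, all genes 0.01), with only Pepck1 called. Several of these genes varied together between libraries of 1 group (given further on), so these counts are not those of 9 separate measurements. Neither difference was balanced for the other transgenes.

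The same comparisons in the fat body gave no call among 63 responses, with 7 at an unadjusted p under 0.05. Of all 9734 genes tested there, 2125 in Foxo and 2257 in AopACT+PntP1 had such a p. In the other genotypes it was 211 (PntP1) to 475 (AopACT) genes. Few genes of any kind were called there. The share of all genes called was 0% in Foxo, 0.411% in AopACT, 0.0103% in PntP1, 0.0308% in Foxo+AopACT, 0% in Foxo+PntP1, 0.123% in AopACT+PntP1 and 0.0103% with all the transgenes. The interaction gave 0 of 9 (2 at an unadjusted p under 0.05), where 0.113% of all genes were called and 1274 had such a p. The mean response and the differences by transgene gave 0 of 36 (4 at an unadjusted p under 0.05). Of all genes, 369 had such a p for the mean response. For the differences it was 146 (Foxo), 998 (AopACT) and 598 (PntP1). All genes were called at 0.277% for the mean response, 0% for the Foxo difference, 0.0514% for the AopACT difference and 0.452% for the PntP1 difference. DESeq2 called 2 of the 63 responses and 1 of the 9 interactions. Limma voom with quality weights called 3 of the 63, and leaving out Foxo induced replicate 1 gave 3 calls with edgeR. How many of all genes these alternatives called was not counted.

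**Figure D4:**
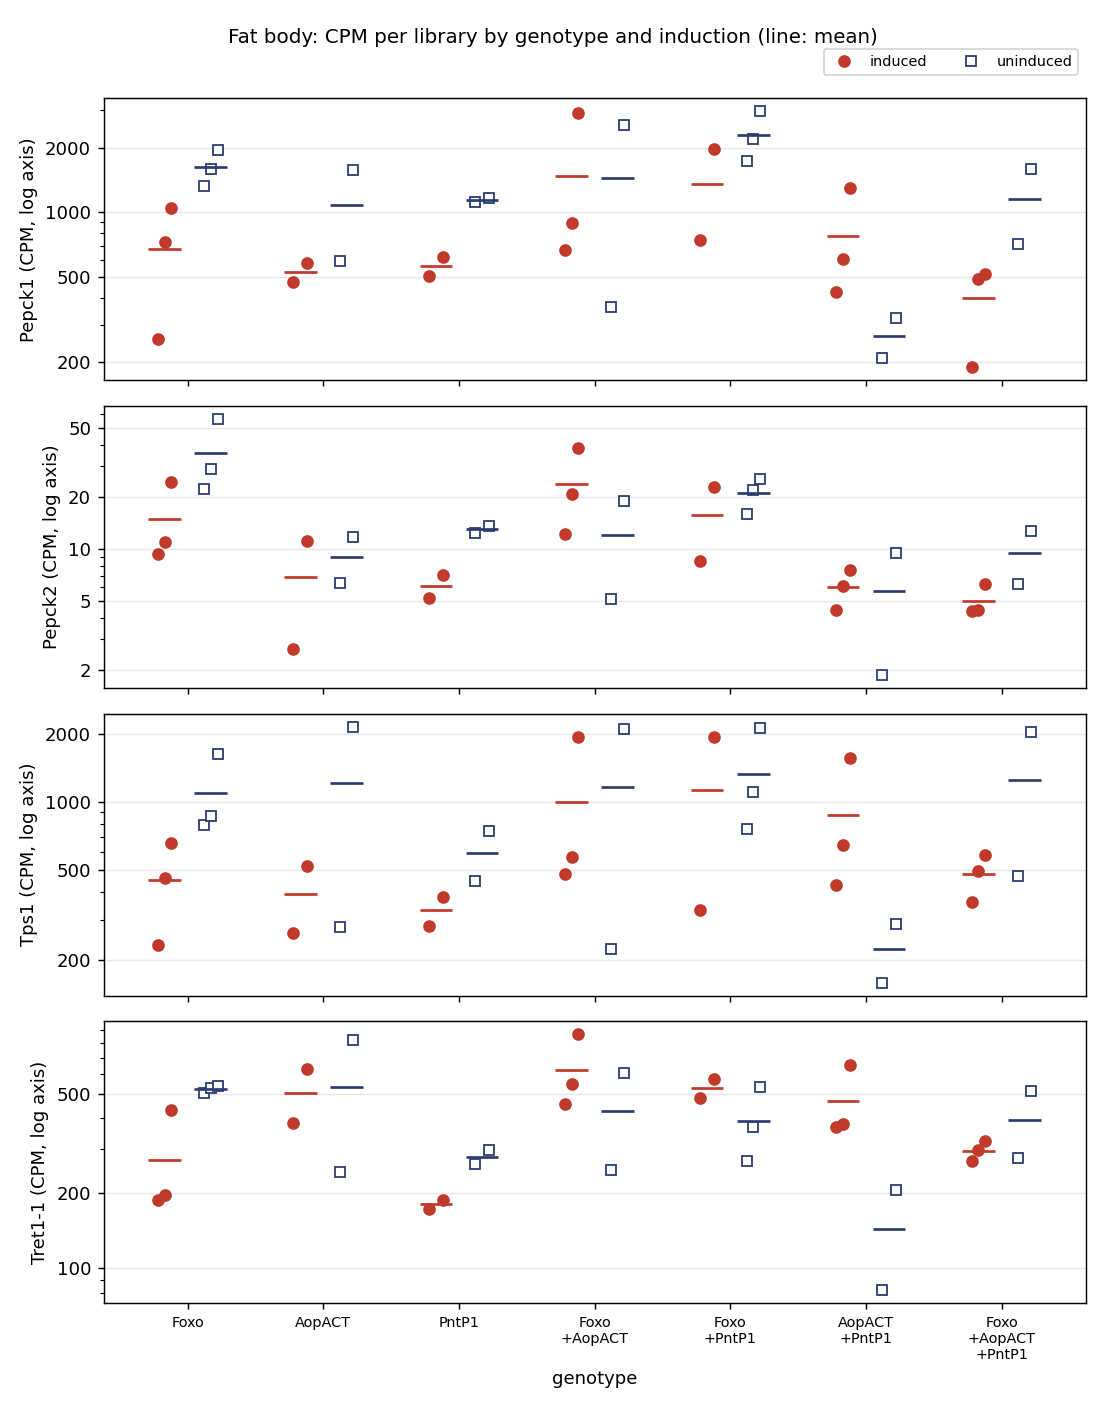
Levels of Pepck1, Pepck2, Tps1 and Tret1-1 in every fat body library by genotype, in CPM on a log axis, induced libraries left of uninduced ones. Points are libraries and lines are group means. Induced Foxo fat bodies lie low and induced AopACT+PntP1 fat bodies lie high against their uninduced counterparts for Pepck1, Tps1 and Tret1-1.

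In Foxo fat bodies all 9 genes had a negative log2 fold change (median -0.77, all genes -0.02), none of them called. Pepck1 had 1048, 726 and 256 CPM when induced and 1324, 1589 and 1949 CPM when uninduced, without overlap (log2 fold change -1.35 ± 0.66, edgeR adjusted p = 0.233). Tret1-1 had 433, 187 and 196 CPM when induced and 526, 538 and 504 CPM when uninduced (-0.97 ± 0.46, edgeR adjusted p = 0.223). Pepck2 had 24.5, 11.0 and 9.34 CPM when induced and 28.8, 56.5 and 22.1 CPM when uninduced (-1.33 ± 0.45, edgeR adjusted p = 0.196), and these groups overlapped. DESeq2 called this Pepck2 difference (log2 fold change -1.36, adjusted p = 0.0827). Fat body markers were also low, with a summed level of 90109.9, 54212 and 36637 CPM in the induced and 100317, 93584 and 196146 CPM in the uninduced Foxo fat bodies, and 0 of 9 markers were above 0 (median log2 fold change -0.94, none called). Other marker sums were low as well without overlap. Oenocyte markers summed to 22322 to 51936 CPM when induced and 58126 to 86228 CPM when uninduced, enteroendocrine markers to 58.3 to 173 CPM when induced and 209 to 280 CPM when uninduced, and those of enterocytes, Malpighian tubules, hemocytes and neurons did not overlap either. Ovary and follicle cell markers stood at 575 to 6459 CPM when induced and 426 to 2556 CPM when uninduced (median log2 fold change 2.75, 10 of 14 above 0, none called). The part of these in the levels of the 9 genes was not tested.

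In AopACT+PntP1 fat bodies 8 of the 9 genes had a positive log2 fold change (median 1.04, all genes -0.03). Tret1-1 had 370.0, 654 and 378 CPM when induced and 205 and 81.6 CPM when uninduced, without overlap (log2 fold change 1.78 ± 0.55, edgeR adjusted p = 0.137; DESeq2 adjusted p = 0.0298). Tps1 had 428, 1566 and 644 CPM when induced and 288 and 159 CPM when uninduced (2.00 ± 1.02, edgeR adjusted p = 0.234). Pepck1 had 605, 1293 and 424 CPM when induced and 321 and 209 CPM when uninduced (1.45 ± 0.77, edgeR adjusted p = 0.251). The fat body markers stood at a summed 79410.5 to 202430.4 CPM in these induced libraries and at 32033 and 42647 CPM in the uninduced ones, with 9 of 9 above 0 (median log2 fold change 1.09, 1 called). Without overlap, muscle markers summed to 5103 to 8056 CPM when induced and 3641 and 4345 CPM when uninduced, and oenocyte markers to 50187 to 81516 CPM when induced and 38571 and 42962 CPM when uninduced. Neuron markers were higher without overlap too (116 to 181 CPM induced, 56.9 and 78.0 CPM uninduced). Malpighian tubule markers were lower without overlap (233 to 306 CPM induced, 319 and 344 CPM uninduced). Ovary and follicle cell markers reached 171 to 904 CPM when induced and 508 and 12230 CPM when uninduced, the high value being that of uninduced replicate 2. The part of these was not tested either.

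With all the transgenes 0 of the 9 genes were above 0 in the fat body (median -0.56, all genes -0.08). Pepck1 there had 488, 516 and 189 CPM when induced and 712 and 1586 CPM when uninduced (log2 fold change -1.70 ± 0.73, edgeR adjusted p = 1.0). Medians of the 9 in the other genotypes were -0.03 (AopACT), -0.72 (PntP1), 0.11 (Foxo+AopACT) and -0.31 (Foxo+PntP1). Levels of fbp, Treh and Glys stayed closer together, with fat body responses between -0.77 and 0.80 for fbp, -0.17 and 0.71 for Treh and -0.40 and 0.40 for Glys.

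The mean response over the 7 genotypes was compared between the tissues in one fit of both tables, which also treated libraries of a shared number as separate. Pepck2 averaged a log2 response of 1.03 over gut genotypes, against -0.42 over those of fat bodies. The gut minus fat body difference was 1.46 ± 0.29 SE (edgeR adjusted p = 0.00346), the only call among the 9 genes, where 1.12% of all genes were called. Pepck1 averaged 0.40 in guts, against -0.63 in fat bodies, and its difference of 1.05 ± 0.36 did not pass (edgeR adjusted p = 0.233). For the other 7 the differences lay between -0.38 (fbp) and 0.50 (Glyp). This comparison was added after the values had been seen.

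Replicates of a group spread widely for some of these genes and little for others. The SD of log2 CPM within groups in the fat body was 1.09 for Tps1, 0.95 for AGBE, 0.91 for Glyp and 0.86 for Pepck1, against 0.34 for Treh and 0.34 for Glys. In the gut it was 0.95 for Tps1, 0.86 for AGBE, 0.67 for Glyp and 0.65 for Pepck1, against 0.32 for Treh and 0.33 for fbp. Treh, Glys and fbp were thus measured more evenly between replicates than the others named here.

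**Figure D5:**
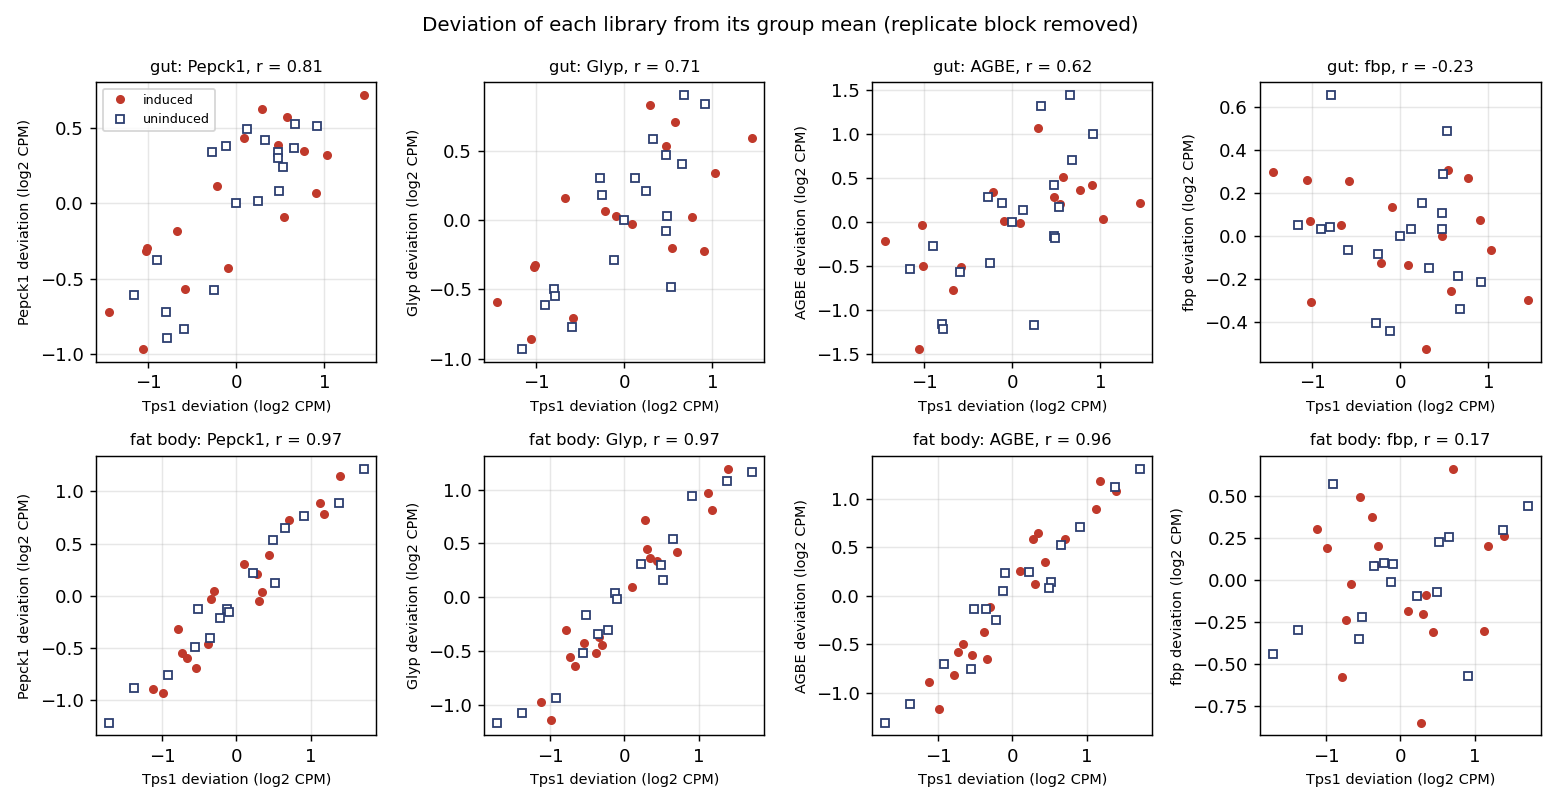
Deviation of each library from its group mean, in log2 CPM with the experimental block removed, for Pepck1, Glyp, AGBE and fbp (vertical axes) against Tps1 (horizontal axes), in guts (upper row, n = 36 libraries) and fat bodies (lower row, n = 34). In fat bodies Pepck1, Glyp and AGBE rise with Tps1 along a line and fbp does not, and in guts the points of the same genes scatter more widely.

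The deviations of fat body libraries from their group means ran in parallel for 4 genes of different branches. Pepck1 and Tps1 had a Pearson r of 0.97 over 34 libraries (Spearman rho 0.96, r without the 2 farthest libraries 0.96). Tps1 had an r of 0.97 with Glyp (rho 0.95, without 2 libraries 0.96) and of 0.96 with AGBE (rho 0.96, without 2 libraries 0.95). For fbp it was 0.17 (rho 0.18, without 2 libraries 0.17). These are descriptions of libraries that share depth and dissection, and are not particular to the 9 genes, since 519 of 9733 other genes had an r above 0.9 with Tps1. The summed fat body markers had an r of 0.94 with Tps1, 0.92 with Pepck1, 0.91 with AGBE and 0.90 with Glyp, against 0.29 with fbp and 0.05 with Pepck2. Markers of other cells ran with these 2 genes, though not only with them. Muscle markers had an r of 0.77 with Tret1-1, 0.62 with Tps1 and 0.58 with Pepck1. For fbp the r was 0.89 with oenocyte, 0.76 with muscle and 0.75 with hemocyte markers, and for Pepck2 it was 0.66 with enteroendocrine and 0.53 with hemocyte markers. The total count per library had an r of 0.72 with Tps1 and 0.69 with Pepck1, and the mitochondrial share of counts one of -0.66 with each. The mitochondrial share had an r of -0.79 with AGBE. For the scaling factor of a library it was -0.80 with Tret1-1, -0.75 with fbp, -0.70 with Tps1 and -0.66 with Pepck1. The part of cell content, depth, scaling or mitochondrial share in these relations was not tested.

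In the gut Pepck1 and Tps1 had an r of 0.81 over 36 libraries (rho 0.73, without 2 libraries 0.79). Tret1-1 and Glyp had an r of 0.89 in the gut (rho 0.88, without 2 libraries 0.87) and 0.75 among fat bodies, and Glys and Glyp one of 0.79 among guts, against 0.69 among fat bodies. Only 2 other gut genes had an r above 0.9 with Tps1. The fat body marker sum had an r of 0.81 with Tps1, 0.78 with Pepck1, 0.84 with Tret1-1, 0.77 with Glyp and 0.61 with Pepck2, against -0.21 with fbp and -0.11 with Treh. Enterocyte markers had an r of 0.85 with Tret1-1 and 0.72 with Glyp. Enteroendocrine markers ran the other way, with an r of -0.88 with Glyp, -0.87 with Pepck1, -0.80 with Tret1-1 and -0.63 with Pepck2. The mitochondrial share had an r of -0.76 with Glys and -0.66 with Tret1-1. For the scaling factor of a library it was 0.70 with Glys, 0.68 with AGBE, 0.66 with Glyp and 0.64 with Pepck1, against -0.30 with fbp. The part of any of these was not tested.

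Other genes of these routes were taken from a list of 36, of which 34 were tested in each tissue. In the gut, tobi, which encodes an alpha-glucosidase known as a target of insulin and glucagon-like signals, was higher with Foxo (4927 ± 1291 CPM induced, 1112 ± 851 CPM uninduced, n = 3 each, log2 fold change 2.40, edgeR adjusted p = 0.0580). It was also higher with AopACT (2.82, edgeR adjusted p = 0.0351), with Foxo+AopACT (4.09, edgeR adjusted p = 9.33e-04) and with all the transgenes (3.34, edgeR adjusted p = 0.00180). PntP1 guts had 35.2 ± 18.9 CPM of tobi when induced and 228 ± 161 CPM when uninduced (n = 2 and 3, log2 fold change -2.69, edgeR adjusted p = 0.0316). The AopACT difference of tobi was 3.92 (edgeR adjusted p = 2.34e-05) and its PntP1 difference -3.00 (edgeR adjusted p = 1.72e-04).

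PntP1 guts also had less Mondo, which with bigmax forms a sugar-sensing transcription factor pair, with 89.9 ± 2.30 CPM when induced and 175 ± 36.0 CPM when uninduced (n = 2 and 3, log2 fold change -0.99, edgeR adjusted p = 0.0484). Gbs-70E, a glycogen-binding subunit of protein phosphatase, had 64.2 ± 12.5 CPM when induced and 142 ± 19.2 CPM when uninduced in the same guts (-1.07, edgeR adjusted p = 0.0846). The PntP1 difference was called for both (Mondo -0.99, edgeR adjusted p = 0.00286; Gbs-70E -0.88, edgeR adjusted p = 0.0294). The AopACT difference was called for Mondo (0.74, edgeR adjusted p = 0.0799) and for bigmax (0.76, edgeR adjusted p = 0.0496). Gbs-70E was also lower in the mean of the 7 gut responses (-0.37, edgeR adjusted p = 0.0487) and tobi higher (1.39, edgeR adjusted p = 2.99e-04). In all, the 34 genes gave 1 call higher and 0 lower in each of Foxo (0.507% of all genes called), AopACT (0.291%), Foxo+AopACT (2.13%) and the genotype with all the transgenes (1.64%). They gave 0 higher and 3 lower in PntP1 (3.04%), and none in Foxo+PntP1 (2.79%) and AopACT+PntP1 (0.787%).

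In the fat body tobi was the single gene of the list with a call. AopACT fat bodies had 689.6 ± 290 CPM when induced and 21.0 ± 5.73 CPM when uninduced (n = 2 each, log2 fold change 5.30, edgeR adjusted p = 0.0215). Its AopACT difference was 3.70 (edgeR adjusted p = 0.0323) and its mean response 2.22 (edgeR adjusted p = 0.00103). In AopACT fat bodies, enterocyte markers summed to 396 and 966 CPM when induced and 29.7 and 235 CPM when uninduced. Ovary and follicle cell markers were higher too (4434 and 4494 against 37.8 and 1775 CPM). Fat body markers were lower (25229 and 29650 against 38369 and 268738 CPM), as were spermatheca and enteroendocrine markers, all without overlap. The part of these in the rise of tobi was not tested.

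Between the uninduced tissues, 7 of the 34 were higher and 22 lower in the gut, with a median log2 difference of -0.79 (all genes 0.01). As given above, 74.9% of all genes were called in this comparison. AkhR, the receptor of the adipokinetic hormone that mobilises fat body stores, had 2.00 ± 1.29 CPM in guts and 140 ± 42.1 CPM in fat bodies (log2 difference -6.14). UGP, which makes the UDP-glucose used for trehalose and glycogen, had 61.7 ± 12.8 CPM in guts and 871 ± 328 CPM in fat bodies (-3.85). By contrast tobi had 802 ± 555 CPM in guts and 21.1 ± 15.2 CPM in fat bodies (5.00).

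The genes with the pattern most like those called in the gut were listed by Pearson r of log2 CPM over 36 libraries, with no test. For fbp they were CG5445 (0.87) and FucTC (0.86), and for Pepck2 CG15784 (0.78) and Cyp309a1 (0.75). For Pepck1 they were CG45087 (1.0), which shares its exons, and CG5254 (0.81).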

How the data were processed

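Per the deposited key and the methods of the study, duplicate reads were discarded by the authors with Je, going by molecular identifiers. They used HISAT2 to align reads to release 6 of the fly genome and featureCounts to count them by gene. The submitters' processing notes name SAMtools and DESeq2 too. The values deposited are raw counts, whole numbers by gene and library. No gene summed to less than 36 over gut or 34 over fat body libraries, so the tables start above genes of the lowest totals. The deposited variance-stabilised tables were not used, since they hold the same libraries after transformation. Whether counting used strand is not known here, and antisense overlaps are therefore uncertain. Of 73 labelled samples, 70 had a column, and 3 induced fat body samples (AopACT, PntP1 and Foxo+PntP1) were not analysed here. Sample labels gave the groups, and the header of the count tables gave the experimental block, named A, C or D. Replicate pairs differed by more than sampling noise (chi-square per degree of freedom at least 12.4 over 31 gut and 10.8 over 26 fat body pairs). Each replicate was its own pool of dissected organs, and the spread between such pools is what p-values measure.

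Fits for each tissue used edgeR 4.0.16 in R 4.3.3 (TMM scaling, filterByExpr, quasi-likelihood, 14 groups plus block), which left 9270 gut and 9734 fat body genes, with a biological coefficient of variation of 0.313 and 0.389 and 20 and 18 residual degrees of freedom. P-values were adjusted over all tested genes by Benjamini-Hochberg, and a gene was called under 0.1, the false discovery rate of 10% that the study used. The difference by transgene is the mean response of the genotypes that carry it minus that of the others. No genotype lacked all the transgenes, so each of the other transgenes is more common among the genotypes without it. Such a difference is therefore not that of 1 transgene alone. Uninduced tissues were fitted together with genotype and block as terms. Log2 CPM used a prior count of 2. Scripts were tested on simulated counts. The members, lists, comparisons and alternatives were chosen with earlier results of these data known. Genes named are the 10 members, the driven factors, called genes of the pathway list (at most 4 a comparison) and, for each called member, the 2 genes with the highest r. AkhR and UGP between the tissues were among the 4 of lowest p. The alternatives were RLE scaling, DESeq2 1.42.0, no filter, no block, each genotype alone and limma 3.58.1 voom with quality weights. Further fits left out the libraries numbered 02 and 05, gut libraries of over 20% mitochondrial counts and each library in turn. The labels of 02 and 05 differ between the tissues. Number 02 is Foxo+PntP1 induced replicate 1 in the gut and Foxo uninduced replicate 1 in the fat body. Number 05 is Foxo uninduced replicate 1 in the gut. In the fat body 05 is labelled Foxo+PntP1 induced, a sample not analysed here. Whether these labels are right was not tested.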

Additional observations from a re-analysis of the deposited data

Results flagged for a closer look

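A total of 4 results were singled out because the response to induction differed between groups by a test of the difference itself. In the gut, the response of fbp differed between the 7 genotypes (edgeR adjusted p = 0.0407 for the interaction), with log2 fold changes between -1.87 in PntP1 and 0.43 in AopACT+PntP1. This call was lost without PntP1 uninduced replicate 1, PntP1 induced replicate 1 or PntP1 induced replicate 2. The response of fbp also differed between genotypes with and without AopACT, averaging 0.03 in the 4 with it and -1.14 in the 3 without it, a difference of 1.17 ± 0.25 SE (edgeR adjusted p = 0.0121). The gut response of Pepck1 averaged -0.17 in the 4 genotypes with PntP1 and 1.17 in the 3 without it, a difference of -1.35 ± 0.40 SE (edgeR adjusted p = 0.0693) that did not hold without each of 11 libraries. Neither of these differences by transgene was balanced for the other transgenes. The mean response of Pepck2 was 1.03 over gut genotypes, against -0.42 over fat body genotypes, a difference of 1.46 ± 0.29 SE (edgeR adjusted p = 0.00346). That comparison of the tissues was added after the values had been seen. Groups held at most 3 libraries, so no outlier rule was applied within a group. Single libraries were instead left out in turn.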

How the results depend on the processing

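Against 3 calls among the 63 gut responses, DESeq2 gave 7, limma voom with quality weights 10, each genotype fitted alone 15 and the fit without libraries of over 20% mitochondrial counts 5. The share of all genes called was not counted under any alternative. Higher counts here and below may thus be those of a fit that calls more genes of any kind. Leaving out each gut library in turn gave 2 to 5. Of the gut interaction, 1 call stood against 2 with DESeq2 and 5 with voom, and 0 to 2 without single libraries (2 without Foxo+AopACT+PntP1 uninduced replicate 1). Of the mean response and the differences by transgene in the gut, 4 calls stood against 8 with voom and 3 to 5 without single libraries. Leaving out 1 of the following gave 5 calls among the 63: Foxo+AopACT+PntP1 uninduced replicate 1, Foxo+PntP1 induced replicate 2, Foxo+AopACT uninduced replicate 2 or AopACT induced replicate 2. In the fat body, 0 of the 63 responses stood against 2 with DESeq2 and 3 with voom, and 0 to 3 without single libraries, where 3 came without Foxo induced replicate 1 and 1 without AopACT uninduced replicate 1 or 2 or Foxo+AopACT uninduced replicate 1 or 2. The fat body interaction gave 1 call with DESeq2. The other counts stayed within 1.5 times, the uninduced tissues giving 8 to 9 calls. No value changed sign under any alternative where it had been called. The Pepck2 tissue difference, not called in the report, was called with RLE scaling (edgeR adjusted p = 0.0945), DESeq2 (0.0707), no filter (0.0966) and voom (0.00580), and without any one of 9 libraries (0.0178 to 0.0979). The Pepck2 difference between the tissues in mean response stayed between 1.32 and 1.58 without single libraries. The fit with no replicate block gave 4 gut calls of 63. For the uninduced tissues, taking the library number shared by gut and fat body as a replicate block left 8 calls. Leaving out the lone Foxo+PntP1 uninduced gut library left no value for that genotype, the mean, the differences by transgene or the interaction. Depth limits Pepck2 and AGBE most, which had the lowest levels.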
